A study of Mus musculus with 16 samples.

Results

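Calorie restriction was compared with free feeding in mice born to normally fed dams, through the RNA of their tibialis anterior, a fast-twitch muscle of the shin. The 8 arrays described here, out of 16 in the study, were chosen by their labels alone. The control CR group (4 arrays) held offspring of control dams kept on calorie restriction. The control AL group (4 arrays) held offspring of control dams fed ad libitum. The other 8 arrays held the matching groups, undernourished CR and undernourished AL (4 arrays each), whose dams were given 50% less food in week 3 of gestation. They serve here to compare the effect of restriction between the 2 kinds of offspring, and they also enter the estimate of the spread and the filter on dim probes. Each group had 8 mice, and each array carried the RNA of a pool of 2 of them, so a replicate is a pool and the spread between single mice was not measured. The strain, sex and age of the mice, the extent and length of the restriction, and the hour of sampling are not given in the sources used here.

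Muscle takes up much of the glucose of a meal and turns to fatty acids between meals. Pyruvate dehydrogenase gates the entry of glucose carbon into the citrate cycle. FoxO factors and PPAR receptors drive the genes of protein breakdown and fat use when food is short. The circadian clock is a loop in which Clock and Arntl (also called Bmal1) switch on the Per and Cry genes, whose proteins then block that drive, and in peripheral tissues the hour of feeding can set its phase.

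Levels are given as log2 signal relative to the 75th percentile of the same array, so that a value of 0 lies at that percentile. Such levels cannot be compared between genes, because each probe has its own brightness. Differences are control CR minus control AL with their standard error (limma, 4 pools a group, 1 spread estimated over 16 arrays). A gene passed the test at a Benjamini-Hochberg adjusted p under 0.05 over 24828 genes.

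The share of spots well above background differed by offspring diet. Over both kinds of offspring it was 66.4% to 74.0% on the freely fed arrays and 74.3% to 78.5% on the restricted arrays. The signal at the 75th percentile was 421 to 589 in control AL and 609 to 713 in control CR. Control CR replicates 1 and 2 shared a slide, as did 3 and 4, and the control AL pools lay in the same way on other slides. The slides of the restricted mice were scanned on another day than those of the freely fed mice, so scan day and offspring diet cannot be told apart. The processed signals were also deposited with up to 3 significant digits on the control CR arrays and up to 7 on the control AL arrays, a difference in file handling that cannot be told apart from diet either. All 14 muscle markers were well above background on every control array, and their median level was 8.89 to 9.14 in control CR and 8.97 to 9.39 in control AL. Transcripts of other tissues stood out in the freely fed group. Of 26 neuron markers, 23 fell under restriction and 1 rose, and their median level was -5.47 to -4.87 in control CR, against 1.17, 0.71, -1.09 and -1.64 in the 4 control AL pools. The log2 of the summed signal was 4.90 to 5.32 in control CR and 5.25 to 7.21 in control AL for the neuron list, 2.87 to 3.26 and 4.15 to 7.08 for 14 glial markers, and 1.98 to 2.21 and 1.91 to 6.39 for 15 skin markers. Among these, 6 neuron markers, 2 glial markers and 2 skin markers were well above background on no control CR array, namely Nefm, Snap25, Gria1, Gad1, Gad2, Syt4, Slc1a2, Ncan, Dsg1a and Lgals7. Of the 15 skin markers 13 fell, and 1 fell and 1 rose when control AL replicates 1 and 2 were left out. Those 2 pools had the highest neuron, glial and skin levels, so counts are given below with all arrays and also without them. Control AL replicates 3 and 4 also carried such transcripts, so the fit without those 2 pools is not free of them. The log2 of the summed glial signal was 4.63 in replicate 3 and 4.15 in replicate 4. That of the skin signal was 5.02 in replicate 3 and 1.91 in replicate 4. The part of these transcripts in any difference below was not tested. In pooled whole muscle, fewer cells of a type and less RNA per cell cannot be told apart.

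**Figure D1:**
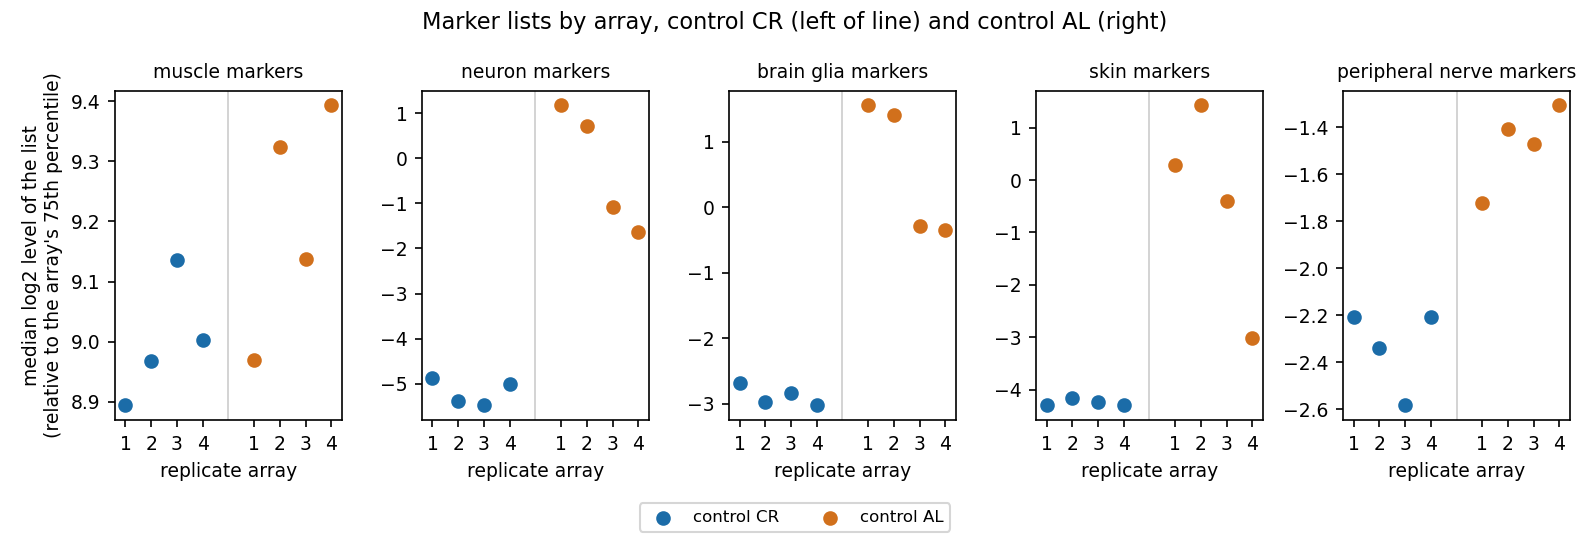
Median log2 level (relative to the 75th percentile of the array) of 5 marker lists on each of the 8 control arrays, control CR left of the line and control AL right of it; each point is 1 array, and the axes differ between panels. Neuron, glial and skin markers are high on control AL replicates 1 and 2, lower on 3 and 4, and lowest on all 4 control CR arrays, while the muscle markers span 8.89 to 9.14 in control CR and 8.97 to 9.39 in control AL.

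A large part of the genes tested differed between control CR and control AL. Of the 24828 genes, 4304 rose (17.3%) and 3724 fell (15%), together 8028 (32.3%), and the median log2 difference of all genes was 0.07. Of these, 2234 genes fell by more than 2-fold and 735 rose by as much. Among called genes whose 4 control AL arrays lay within 1 log2 unit, 448 fell and 474 rose by as much, so that the larger number of falls was not seen there. With control AL replicates 1 and 2 left out, 1940 genes rose (7.81%) and 2441 fell (9.83%), with a median of -0.04. Of the 4304 rises 1830 also passed the test without those 2 pools, and of the 3724 falls 2204 did. These shares are the background against which each group of genes is set below. Of the 24828 entries 15019 carried a gene symbol, as all list members do, and of these 2922 rose and 2254 fell. Of 19983 entries well above background on all 8 control arrays 4115 rose and 3141 fell. In both sets the share of rises was above 17.3%, so a list share slightly above 17.3% lies near the background.

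G0s2 had the largest rise among the genes measured on all 8 arrays. It encodes an inhibitor of adipose triglyceride lipase, the enzyme that opens lipid droplets. Its level was 3.3, 3.13, 0.83 and 1.46 in control CR, against -1.29, -1.66, -1.36 and -0.11 in control AL. The groups were far apart, and the 2 restricted pools of the first slide stood above those of the second. The difference was 3.29 ± 0.50 (adjusted p = 0.000296). Chrna9, an acetylcholine receptor subunit, stood at -1.07, -0.68, 0.34 and -1.15 in control CR and at -4.09, -3.0, -3.96 and -2.66 in control AL, a rise of 2.79 ± 0.50 (adjusted p = 0.000933). Mafa, a transcription factor known for driving the insulin gene in pancreatic beta cells, was at -1.07, -1.48, -1.34 and -1.8 in control CR and at -5.01, -3.59, -4.5 and -3.59 in control AL. Every restricted pool exceeded every freely fed pool by more than 1 log2 unit, and the rise was 2.75 ± 0.30 (adjusted p = 3.09e-05).

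Myod1, the myogenic transcription factor, was measured at 0.24, 0.82, 0.86 and 1.08 in control CR, against -1.87, -1.28, -1.95 and -1.22 in control AL (2.33 ± 0.41, adjusted p = 0.000733). Cish, which damps growth hormone and cytokine signals through STAT5, had levels of 1.9, 2.07, 3.08 and 2.31 in control CR and 0.34, 0.54, -0.72 and 0.97 in control AL. Its freely fed pools were spread over 1.69 log2 units, and its rise of 2.06 ± 0.53 had the weakest support of the 15 largest (adjusted p = 0.00851). Slc25a25, a mitochondrial carrier of ATP-magnesium and phosphate, stood at 4.99, 5.36, 5.23 and 5.25 in control CR and 3.1, 3.71, 2.26 and 4.07 in control AL, so that the restricted pools were close together and the freely fed ones spread. It rose by 1.92 ± 0.37 (adjusted p = 0.00146). The secreted protein Angptl2 rose by 2.02 ± 0.31 (adjusted p = 0.000299) and the phospholipase Plcd4 by 1.93 ± 0.40 (adjusted p = 0.00231). Avil, an actin-binding protein of the villin family, rose by 2.16 ± 0.35 (adjusted p = 0.000412), and Lingo4, a membrane protein with leucine-rich repeats, by 1.96 ± 0.27 (adjusted p = 0.000144). The remaining genes of the 15 were Fam78a (2.38 ± 0.40), 6430571L13Rik (2.55 ± 0.42), Noxred1 (1.87 ± 0.25), Per2 and Per3. By the way they were chosen, none of the 15 had overlapping groups.

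The largest falls included Stmn3 and Nrgn of the neuron list and Ptgds and Bcan of the glial list. All 15 of the genes with the largest falls had control AL pools that differed among themselves by 2.77 to 4.69 log2 units. Ptgds, the prostaglandin D synthase of the brain membranes, stood at -4.81, -4.46, -4.04 and -4.71 in control CR, against 6.24, 5.35, 3.35 and 2.56 in control AL, with the freely fed pools in the same order as the neuron markers. It fell by 8.88 ± 0.69 (adjusted p = 4.67e-06), and the differences of the other 14 ran from -7.7 (Nsg2) to -6.1 (Zcchc18). Some genes were well above background on every control AL array and on no control CR array. For these the difference is only a lower bound, set against the lowest signal well above background in control CR. Ncan, a brain proteoglycan, was at least 289-fold lower in control CR (adjusted p = 4.45e-06) and the glutamate receptor subunit Gria1 at least 190-fold (adjusted p = 5.85e-06). Treh, which splits trehalose, had the opposite pattern: it was well above background on all 4 control CR arrays and on no control AL array, and was at least 1.87-fold higher in control CR (adjusted p = 0.00185), although with normexp background correction its difference was -0.0627. Fabp1, a fatty acid binding protein of liver and gut, had the same pattern and was at least 2.11-fold higher (adjusted p = 0.0439). Its levels of -2.15, -4.77, -5.85 and -6.1 in control CR were uneven, against -8.07, -7.33, -7.99 and -7.96 in control AL, and its call was lost without any of 6 of the 8 arrays (adjusted p 0.0651 to 0.139) and without control AL replicates 1 and 2 (adjusted p = 0.142). The call was also lost with the slide as a random block (adjusted p = 0.0646) and with the replicate block (adjusted p = 0.0709). With normexp background correction the difference of Fabp1 was 0.28 (adjusted p = 0.497). Of 10 liver markers measured, 9 were well above background on all control CR arrays and 3 on all control AL arrays. Their levels did not differ in the same way: 0 rose, 0 fell and the median difference was 0.07. The log2 of their summed signal was -0.31 to 0.36 in control CR and -0.24 to 0.20 in control AL.

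Falls free of that spread were looked for among genes whose 4 control AL pools lay within 1 log2 unit, a choice made after their values were seen. Arl5b, a small GTPase of the Golgi, had -4.75, -5.11, -4.92 and -4.76 in control CR, against -1.7, -1.64, -1.94 and -1.83 in control AL. Neither group spanned more than 0.36 log2 units, and the fall was 3.11 ± 0.19 (adjusted p = 8.01e-07). Dio3, the enzyme that inactivates thyroid hormone, stood at -4.31, -4.97, -5.28 and -4.56 in control CR and -2.09, -2.34, -2.68 and -2.73 in control AL and fell by 2.32 ± 0.27 (adjusted p = 4.36e-05). Mt2, a metal-binding metallothionein that glucocorticoids induce, was at 2.42, 3.37, 2.58 and 2.32 in control CR and 5.38, 5.17, 5.96 and 5.74 in control AL. Its fall of 2.89 ± 0.80 passed the test with all arrays (adjusted p = 0.0123) and not without control AL replicates 1 and 2 (adjusted p = 0.0517). Tnfsf12, which encodes the cytokine TWEAK, fell by 1.93 ± 0.19 (adjusted p = 1.72e-05). The haem-regulated transcriptional repressor Bach1 fell by 1.7 ± 0.30 (adjusted p = 0.000783), the Wnt inhibitor Wif1 by 2.3 ± 0.54 (adjusted p = 0.00493), the chromatin factor Arid5b by 1.79 ± 0.29 (adjusted p = 0.000462) and the kinesin light chain Klc3 by 1.9 ± 0.16 (adjusted p = 7.94e-06).

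**Figure D2:**
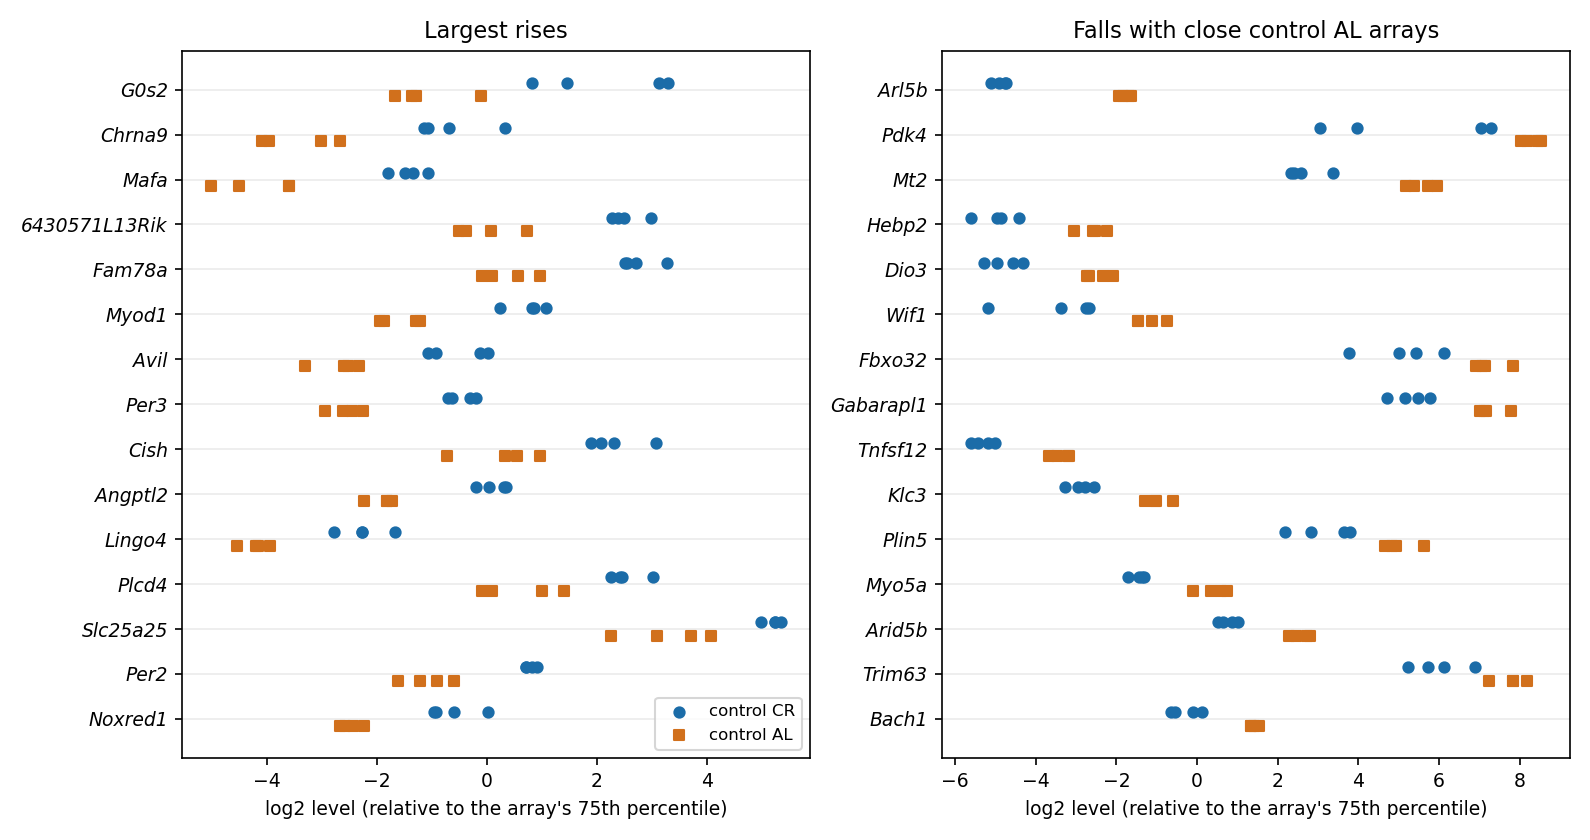
Log2 level (relative to the 75th percentile of the array) of the 15 largest rises (left) and of 15 falls whose 4 control AL arrays lie within 1 log2 unit (right); blue circles are the 4 control CR arrays and orange squares, drawn just below, the 4 control AL arrays. The groups do not overlap for any gene shown, and Pdk4 has 2 restricted arrays at 3.06 and 3.97 and 2 at 7.29 and 7.03.

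The clock genes had the largest share of rises among the pathway lists. Of 20 genes of the clock list, all measured, 12 rose (60%) and 1 fell (5%), against 17.3% and 15% of all genes, and the list's median difference was 0.68. Without control AL replicates 1 and 2, 8 rose, 0 fell and the median was 0.73. The repressors came first. Per3 stood at -0.20, -0.31, -0.63 and -0.70 in control CR, against -2.94, -2.61, -2.44 and -2.25 in control AL, a rise of 2.1 ± 0.30 (adjusted p = 0.000198). Per2 was at 0.91, 0.82, 0.72 and 0.71 in control CR, against -1.21, -0.91, -1.61 and -0.59 in control AL (1.87 ± 0.26, adjusted p = 0.000151). Cry1 had levels of -2.0, -1.82, -2.14 and -2.44 in control CR and -4.14, -3.92, -3.64 and -3.38 in control AL and rose by 1.67 ± 0.19 (adjusted p = 3.62e-05). In all 3 the restricted pools stood well above the freely fed ones. Per1 rose by 0.93 ± 0.24 (adjusted p = 0.00809) and Cry2 by 0.72 ± 0.18 (adjusted p = 0.00724).

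Of the other repressors of the loop, Bhlhe40 (Dec1) had 3.15, 3.27, 3.23 and 3.14 in control CR, against 2.0, 1.61, 1.72 and 2.16 in control AL. The restricted pools lay within 0.13 log2 units of each other, and the rise was 1.32 ± 0.14 (adjusted p = 2.12e-05). Bhlhe41 (Dec2) rose by 0.91 ± 0.19 (adjusted p = 0.0027) and the nuclear receptor Nr1d2 (Rev-erb beta) by 0.64 ± 0.15 (adjusted p = 0.00455), with 1 freely fed pool of Nr1d2 inside the restricted range. Its relative Nr1d1 did not pass the test (-0.01). Among the output factors that bind D-boxes, Dbp was at 5.48, 5.74, 4.48 and 5.11 in control CR and 3.98, 3.67, 3.58 and 4.24 in control AL (1.34 ± 0.28, adjusted p = 0.00216), and Tef rose by 0.53 ± 0.14 (adjusted p = 0.0113). Usp2, a deubiquitinase under clock control, stood at 4.43, 4.51, 4.48 and 4.44 in control CR and 2.75, 2.88, 2.58 and 3.66 in control AL and rose by 1.5 ± 0.21 (adjusted p = 0.000172).

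The activator Arntl was the member that fell. Its level was -0.35, 0.28, 0.74 and -0.15 in control CR, against 1.21, 1.07, 1.84 and 0.87 in control AL, which is the reverse order of the Per genes. The fall of 1.12 ± 0.36 (adjusted p = 0.0275) was near the threshold: it was lost without any of control AL replicates 1 and 3 or control CR replicates 1 and 4 (adjusted p 0.0547 to 0.0821) and without both control AL replicates 1 and 2 (adjusted p = 0.0907). It was also lost with the slide as a random block (adjusted p = 0.0539) and in the authors' values, where the difference was -0.64 (adjusted p = 0.122). Its partner Clock showed a difference of 0.01 and did not pass. Without those 2 freely fed pools the calls of Per1, Cry2, Nr1d2 and Tef were also lost, at adjusted p values of 0.0647 (Cry2) to 0.131 (Tef), with differences of 0.40 (Tef) to 0.80 (Per1).

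**Figure D3:**
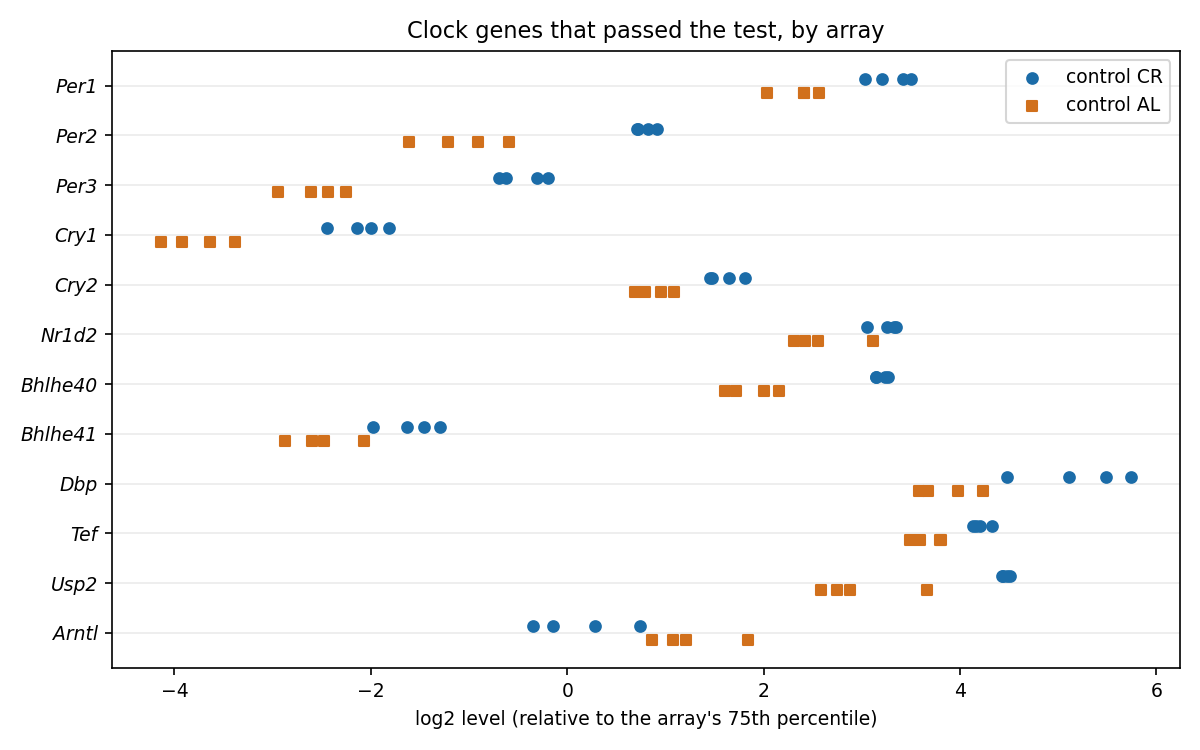
Log2 level (relative to the 75th percentile of the array) of 12 clock genes that passed the test; blue circles are the 4 control CR arrays and orange squares, drawn just below, the 4 control AL arrays. The restricted arrays lie to the right of the freely fed ones for 10 genes, overlap them for Nr1d2, and lie to the left for Arntl.

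Promoter sequences are shown for 5 clock genes that passed the test and hold a clock motif in the window searched, from 250 bases before to 50 after the RefSeq start (GRCm38.p6). The motifs were the E-box CACGTG, the sequence that Clock and Arntl bind and which reads alike on both strands, and the D-box TTATGTAA, searched on both strands, which Dbp and Tef bind. The motifs do not overlap each other in these windows. Of 20 clock genes 17 had an entry, with 22 promoters. CACGTG stood in 6 of these 22 promoters (27.3%), against 7.15% of 32851 promoters of all genes, and TTATGTAA in 1 of 22 (4.55%), against 0.938%. The 250 bases before the start of 5 of them are printed 5′ to 3′ on the strand of the gene, with the motifs in capitals. They lie at chr10:85185055-85185304 (minus strand) for Cry1, chr11:69098699-69098948 (plus strand) for Per1, chr6:145865421-145865670 (minus strand) for Bhlhe41, chr15:81802423-81802672 (plus strand) for Tef and chr4:151044666-151044915 (minus strand) for Per3.
Cry1: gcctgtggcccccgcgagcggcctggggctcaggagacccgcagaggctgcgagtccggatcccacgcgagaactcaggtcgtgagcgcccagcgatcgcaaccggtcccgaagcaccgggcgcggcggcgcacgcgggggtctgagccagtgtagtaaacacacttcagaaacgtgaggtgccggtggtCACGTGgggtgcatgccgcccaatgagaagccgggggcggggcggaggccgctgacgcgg
Per1: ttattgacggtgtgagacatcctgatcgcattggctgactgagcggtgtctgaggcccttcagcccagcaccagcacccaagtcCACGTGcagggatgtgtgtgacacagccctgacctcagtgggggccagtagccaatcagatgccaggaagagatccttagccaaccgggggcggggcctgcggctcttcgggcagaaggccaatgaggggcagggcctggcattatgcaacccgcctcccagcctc
Bhlhe41: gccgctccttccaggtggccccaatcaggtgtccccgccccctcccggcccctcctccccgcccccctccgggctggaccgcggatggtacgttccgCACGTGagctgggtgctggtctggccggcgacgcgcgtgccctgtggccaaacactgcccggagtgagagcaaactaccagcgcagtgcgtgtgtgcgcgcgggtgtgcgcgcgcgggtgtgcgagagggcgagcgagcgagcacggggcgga
Tef: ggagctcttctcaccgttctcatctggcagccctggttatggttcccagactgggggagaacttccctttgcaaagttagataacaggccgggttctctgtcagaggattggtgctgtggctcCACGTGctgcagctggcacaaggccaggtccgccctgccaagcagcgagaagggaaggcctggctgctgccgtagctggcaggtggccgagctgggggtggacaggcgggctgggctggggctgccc
Per3: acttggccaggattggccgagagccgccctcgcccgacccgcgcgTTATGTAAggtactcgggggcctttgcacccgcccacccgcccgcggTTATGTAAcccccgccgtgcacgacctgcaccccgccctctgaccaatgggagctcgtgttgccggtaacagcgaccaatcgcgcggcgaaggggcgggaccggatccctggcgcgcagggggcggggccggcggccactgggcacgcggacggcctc
The E-box begins at -60 in Cry1, -166 in Per1, -153 in Bhlhe41 and -127 in Tef, counted back from the start, and the D-boxes at -205 and -158 in Per3. Cry1, Per1, Bhlhe41 and Tef, which share the E-box, rose by 1.67, 0.93, 0.91 and 0.53. Ciart, which is not printed, holds 3 E-boxes and had a difference of 0.58. Cry2, Dbp, Nr1d2 and Usp2 also rose and hold neither motif in the window. Per3, with the 2 D-boxes, had the largest rise of the clock list. A motif is a match of letters and does not show binding.

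Falls prevailed among the called genes of the fasting response. Of 21 PPAR targets and fasting genes measured, 0 rose and 9 fell (42.9%, against 15% of all genes), with a median of -0.49. Pdk4, the kinase that shuts pyruvate dehydrogenase in fasting, was at 3.06, 3.97, 7.29 and 7.03 in control CR, against 8.05, 8.19, 8.54 and 8.45 in control AL. The 4 freely fed pools were alike, while both restricted pools of the first slide stood more than 3 log2 units below those of the second. The fall of 2.97 ± 0.88 (adjusted p = 0.0188) was lost without control CR replicate 1 (-2.21, adjusted p = 0.0628) or 2 (-2.51, adjusted p = 0.0623), and without control AL replicates 1 and 2 (adjusted p = 0.0786). Angptl4, a secreted inhibitor of lipoprotein lipase, showed the same split, with -1.01, -0.09, 2.05 and 2.55 in control CR and 3.1, 2.64, 4.13 and 3.15 in control AL. It fell by 2.38 ± 0.69 (adjusted p = 0.0167), a call that was also lost without control CR replicate 1 (-1.75, adjusted p = 0.0547) or 2 (-2.06, adjusted p = 0.0549). Without control AL replicates 1 and 2, 4 of the 21 genes fell.

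Lipid droplet genes moved both ways, 4 up (19%) and 6 down (28.6%) among 21 measured, against 17.3% and 15% of all genes. Plin5, the droplet coat protein of oxidative tissue, stood at 2.18, 2.84, 3.64 and 3.8 in control CR, against 4.92, 4.67, 5.62 and 4.83 in control AL (-1.9 ± 0.37, adjusted p = 0.00151). Its restricted pools of the first slide lay below those of the second. Lpin2, a phosphatidate phosphatase of triglyceride synthesis, fell by 1.63 ± 0.33 (adjusted p = 0.00202) and the droplet protein Cidea by 1.33 ± 0.33 (adjusted p = 0.00746). Pnpla2, the lipase that G0s2 inhibits, had a difference of -0.70 (adjusted p = 0.025), while its activator Abhd5 had 0.62 (adjusted p = 0.0016). Relative to all genes the list's median was -0.24, and it turned positive with normexp background correction (0.03) and in the authors' values (0.03). In fatty acid synthesis 5 of 17 genes rose and 1 fell, and 2 rose without control AL replicates 1 and 2; the list's median relative to all genes was 0.17 and, with quantile normalization, -0.01. Scd1, which makes monounsaturated fatty acids, was at 3.18, 2.23, 2.22 and 2.87 in control CR and 1.13, 0.99, 1.21 and 0.23 in control AL (1.73 ± 0.34, adjusted p = 0.00161), and the synthase Fasn rose by 1.33 ± 0.29 (adjusted p = 0.00315). Of 18 genes of mitochondrial fatty acid oxidation, 0 rose and 1 fell.

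Glucose storage and pyruvate entry were next. Of 17 glycogen genes measured, 7 rose (41.2%, against 17.3%) and 0 fell, with a median of 0.35; without control AL replicates 1 and 2, 1 rose (7.81% of all genes did) and the median was 0.25. The gene that still passed was Stbd1, a protein that tethers glycogen to membranes. It stood at 3.97, 3.59, 3.65 and 3.32 in control CR, against 1.67, 2.17, 1.62 and 2.67 in control AL (1.6 ± 0.26, adjusted p = 0.000474). Gys1, the muscle glycogen synthase, was at 3.74, 3.97, 4.21 and 3.93 in control CR and 2.76, 3.18, 3.18 and 3.33 in control AL. All 4 restricted pools were higher, and the difference was 0.85 ± 0.21 (adjusted p = 0.00729). Phka1, a regulatory subunit of phosphorylase kinase in muscle, rose by 0.94 ± 0.24 (adjusted p = 0.00701). The calls of Gys1 and Phka1 were lost without those 2 pools, at adjusted p values of 0.0791 and 0.0738.

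In the pyruvate dehydrogenase list 7 of 13 measured genes rose (53.9%, against 17.3% of all genes) and Pdk4 alone fell. Pdp1, the phosphatase that switches the complex on, had 3.88, 3.81, 3.25 and 3.22 in control CR, against 2.1, 2.33, 1.86 and 3.08 in control AL, with 1 freely fed pool close below the restricted ones. It rose by 1.2 ± 0.24 (adjusted p = 0.0018). Pdha1, a catalytic subunit, stood at 5.31, 5.17, 5.57 and 5.29 in control CR and 4.11, 4.44, 4.53 and 4.83 in control AL (0.86 ± 0.17, adjusted p = 0.002). The acetyltransferase subunit Dlat rose by 0.75 ± 0.16 (adjusted p = 0.00272). The kinases Pdk2 and Pdk1 rose too, by 0.70 ± 0.15 (adjusted p = 0.0023) and 0.51 ± 0.12 (adjusted p = 0.00567), in the opposite direction to Pdk4. Without control AL replicates 1 and 2, 3 of the 13 rose, Dlat (adjusted p = 0.0522) and Pdk1 (adjusted p = 0.0897) not among them.

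Further into the mitochondrion, 7 of 18 citrate cycle genes rose (38.9%, against 17.3% of all genes) and none fell. The list's median relative to all genes was 0.22 and, with quantile normalization, -0.03. Idh2, an isocitrate dehydrogenase, was at 3.91, 4.38, 4.14 and 3.8 in control CR and 2.9, 2.66, 2.97 and 3.02 in control AL (1.17 ± 0.24, adjusted p = 0.00209). Ogdh, of the oxoglutarate dehydrogenase step, rose by 1.05 ± 0.19 (adjusted p = 0.000963) and Sdha, of succinate dehydrogenase, by 0.90 ± 0.16 (adjusted p = 0.000698). These 3 were the members that also passed without control AL replicates 1 and 2. Ppargc1b, a coactivator of mitochondrial genes, had 3.11, 2.97, 2.91 and 3.34 in control CR and 2.12, 2.02, 1.79 and 2.29 in control AL, and rose by 1.03 ± 0.22 (adjusted p = 0.00298). Mief1, which recruits the fission protein Drp1, rose by 0.59 ± 0.10 (adjusted p = 0.000853). Respiratory chain subunits were mostly below the threshold: 4 of 36 genes of complex I rose, and 2 of 37 genes of complexes III to V fell, namely Cox6a1 by 0.97 ± 0.18 (adjusted p = 0.0012) and Cox8a by 0.89 ± 0.20 (adjusted p = 0.00345), Cox8a not without control AL replicates 1 and 2 (adjusted p = 0.0638). The call of Cox8a was also lost in the authors' values (adjusted p = 0.0632).

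Growth control genes shifted in both directions. Of 22 genes around mTORC1, the kinase complex that couples food to protein synthesis, 10 rose (45.5%, against 17.3% of all genes) and 3 fell, with a median of 0.35 and, without control AL replicates 1 and 2, 3 up, 3 down and a median of 0.28. The genes that fell, Ddit4, Sesn2 and Sesn3, encode inhibitors of the complex. Ddit4 (REDD1), induced by glucocorticoids and stress, was at 3.87, 4.81, 5.48 and 4.56 in control CR, against 6.07, 6.98, 7.21 and 7.25 in control AL. It fell by 2.19 ± 0.57 (adjusted p = 0.00854). Sesn2, a leucine sensor that restrains the complex, fell by 0.68 ± 0.12 (adjusted p = 0.000751). In the authors' values the difference of Sesn2 was -0.19 and did not pass (adjusted p = 0.177). Ddit4l (REDD2), a relative of Ddit4, went the other way, with 5.93, 5.77, 5.94 and 5.77 in control CR and 4.53, 4.7, 5.16 and 5.2 in control AL (0.96 ± 0.17, adjusted p = 0.000913). Mtor itself rose by 0.60 ± 0.16 (adjusted p = 0.00907), its target kinase Rps6kb1 by 0.68 ± 0.12 (adjusted p = 0.000844) and the cap-binding factor Eif4e by 0.69 ± 0.17 (adjusted p = 0.00686), Eif4e not without control AL replicates 1 and 2 (adjusted p = 0.0672).

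Upstream of these, the insulin-like growth factor receptor Igf1r fell by 0.76 ± 0.19 (adjusted p = 0.0082), with 0.02, -0.18, 0.34 and 0.21 in control CR and 0.80, 0.68, 1.06 and 0.88 in control AL; over the mean of all its probes that call was lost. Prkab1, a regulatory subunit of AMPK, rose by 0.66 ± 0.12 (adjusted p = 0.00126). In the insulin and IGF list 4 of 25 genes rose and 1 fell, and in the AMPK list 3 of 13 rose and 3 fell. The shares of rises, 16% and 23.1%, were near the 17.3% of all genes. Among 30 translation factors 6 rose (20%) and 2 fell; the largest rise was of Eif3f, a subunit of initiation factor 3, at 4.93, 4.82, 4.76 and 4.57 in control CR and 3.76, 3.78, 4.08 and 4.08 in control AL (0.84 ± 0.11, adjusted p = 0.000133).

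Fbxo32 and Trim63, the ubiquitin ligases best known from muscle atrophy, fell. Fbxo32 (atrogin-1) stood at 3.78, 5.0, 6.12 and 5.42 in control CR, against 7.15, 6.91, 7.84 and 7.06 in control AL (-2.16 ± 0.55, adjusted p = 0.00778). Trim63 (MuRF1) was at 5.22, 5.74, 6.9 and 6.13 in control CR, against 7.25, 7.85, 8.19 and 7.83 in control AL (-1.78 ± 0.44, adjusted p = 0.00668). In both, control CR replicate 1 was lowest and control AL replicate 3 highest, and the groups did not overlap. The restricted pools of the first slide lay below those of the second in both, as they did for Pdk4. Gadd45a, a FoxO and stress target, fell by 1.55 ± 0.31 (adjusted p = 0.00175). Mul1, a ubiquitin ligase of the mitochondrial outer membrane, stood against them, with 2.45, 2.42, 2.41 and 2.3 in control CR and 1.38, 1.2, 1.63 and 1.48 in control AL, a rise of 0.97 ± 0.11 (adjusted p = 3.96e-05) that was not seen over the mean of its probes (0.10). Across the list 7 of 20 measured genes fell (35%, against 15%) and 4 rose. The glucocorticoid list had 4 falls (20%) and 1 rise (5%) among 20.

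Autophagy genes divided in the same way. Gabarapl1, which coats autophagosomes, was at 4.72, 5.15, 5.79 and 5.49 in control CR, against 7.11, 7.02, 7.78 and 7.17 in control AL, and fell by 1.99 ± 0.38 (adjusted p = 0.00148). Ulk1, the kinase that starts autophagy, stood at 4.62, 4.97, 5.72 and 5.04 in control CR and 6.04, 6.33, 6.92 and 6.26 in control AL (-1.3 ± 0.27, adjusted p = 0.00262). Its relatives in the core machinery went up: Gabarap, of the same family as Gabarapl1, by 0.70 ± 0.12 (adjusted p = 0.000533), and Atg3, which joins these proteins to lipid, by 0.67 ± 0.10 (adjusted p = 0.000287). Of 27 measured genes 7 rose (25.9%) and 3 fell (11.1%), against 17.3% and 15% of all genes, and 3 and 3 did so without control AL replicates 1 and 2. All 4 of these genes passed the test there too. For Gabarapl1 and Ulk1 the restricted pools of the first slide lay below those of the second.

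**Figure D4:**
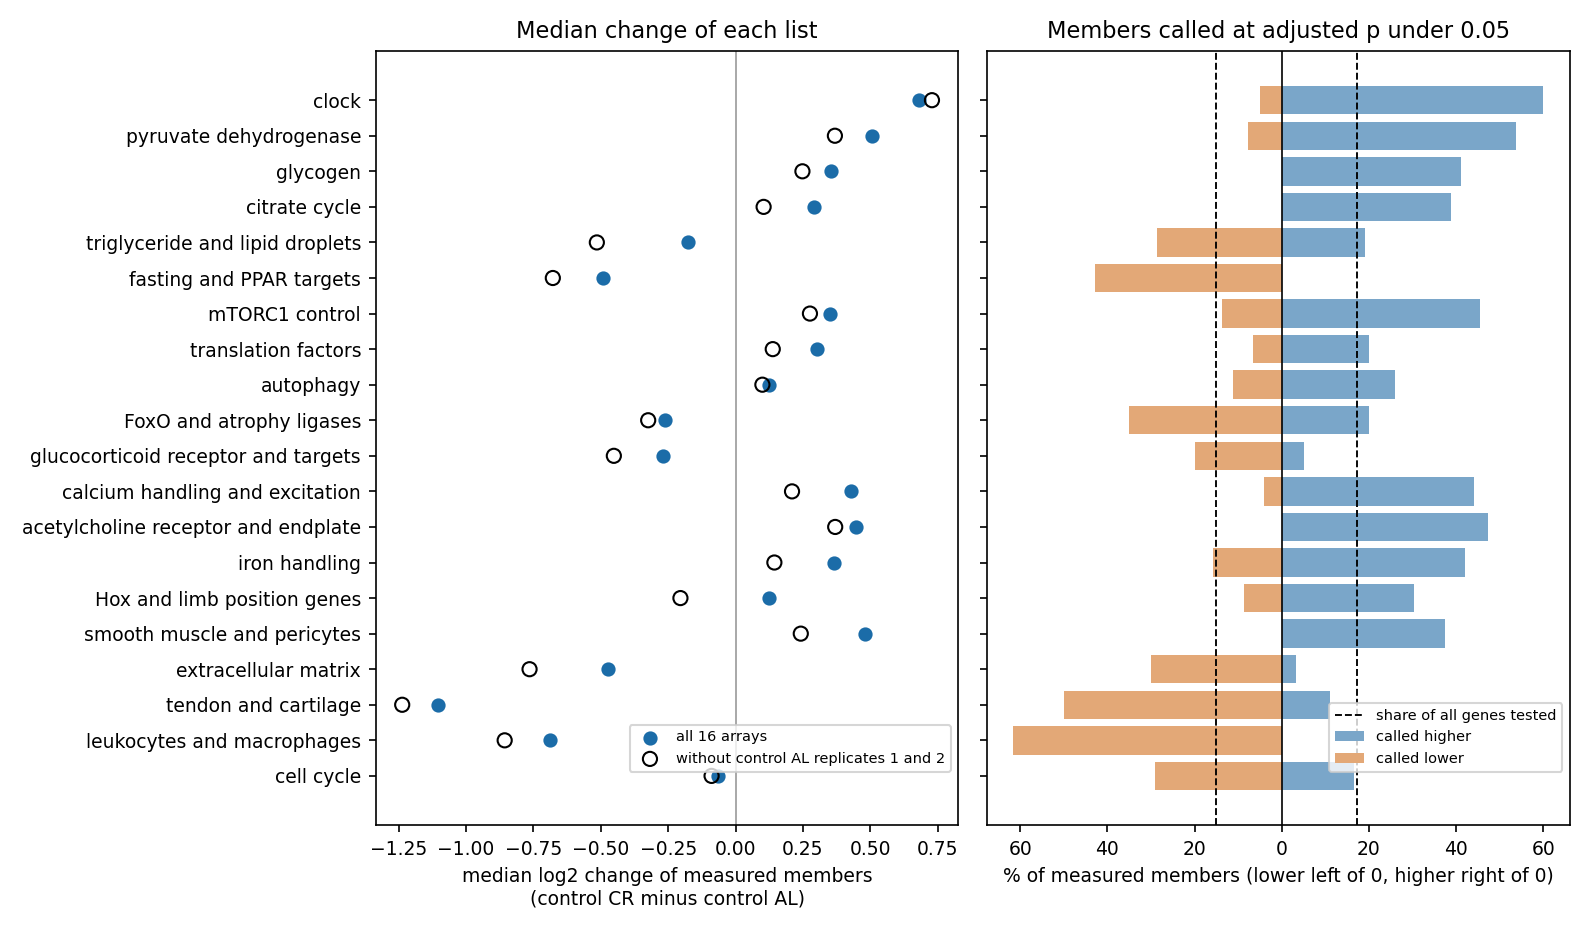
Left, median log2 difference (control CR minus control AL) of the measured members of 20 gene lists, with all 16 arrays (filled) and without control AL replicates 1 and 2 (open). Right, the percentage of measured members that passed the test, lower to the left and higher to the right, with dashed lines at the shares of all genes, 15% lower and 17.3% higher. The clock list has the largest share of rises (60%) of the lists drawn and the leukocyte list the largest share of falls. Relative to all genes, the medians of the citrate cycle, lipid droplet, translation factor, autophagy and cell cycle lists changed sign with the scaling.

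Of 25 genes of membrane excitation and calcium handling, 11 rose (44%, against 17.3% of all genes) and 1 fell, with a median of 0.43. Without control AL replicates 1 and 2, 6 rose, against 7.81% of all genes, and 1 fell (median 0.21). Clcn1, the chloride channel that steadies the muscle membrane, stood at -0.64, -0.83, -0.54 and -0.73 in control CR, against -2.51, -2.15, -2.07 and -2.05 in control AL (1.51 ± 0.22, adjusted p = 0.000197). Casq2, the calsequestrin of cardiac and slow muscle, was at 1.58, 1.88, 2.25 and 1.28 in control CR, against 0.17, 0.34, 0.35 and 0.68 in control AL (1.36 ± 0.20, adjusted p = 0.0002). Every restricted pool of both genes lay above every freely fed one. Pln (phospholamban), which holds back the calcium pump of slow and cardiac muscle, rose by 0.93 ± 0.15 (adjusted p = 0.00054), though not with normexp background correction. Scn4a, the sodium channel of the action potential, rose by 0.90 ± 0.21 (adjusted p = 0.0049).

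At the nerve-muscle junction 9 of 19 genes rose (47.4%, against 17.3% of all genes) and 0 fell. The median was 0.45, and without control AL replicates 1 and 2 it was 0.37, with 6 rises, where 7.81% of all genes rose. Etv5, an ETS factor that drives synaptic genes, had -2.26, -2.38, -2.21 and -2.46 in control CR, against -3.83, -3.79, -3.7 and -4.1 in control AL. Both groups were tight, and the rise was 1.53 ± 0.14 (adjusted p = 1.37e-05). Ufsp1, a protease of the ufmylation pathway, rose by 1.16 ± 0.16 (adjusted p = 0.000144). Rapsn, the scaffold that gathers acetylcholine receptors, stood at 1.55, 1.85, 1.71 and 1.51 in control CR and 0.33, 0.68, 0.74 and 0.95 in control AL (0.98 ± 0.13, adjusted p = 0.00012). The receptor's main alpha subunit Chrna1 rose by 0.76 ± 0.13 (adjusted p = 0.000844), its beta subunit Chrnb1 by 1.11 ± 0.26 (adjusted p = 0.00519) and acetylcholinesterase (Ache) by 1.0 ± 0.23 (adjusted p = 0.0041). Without those 2 pools Chrnb1 did not pass (adjusted p = 0.0536). In the denervation list 1 of 15 genes rose, Chrna1, and 2 fell.

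Contractile genes passed the test in both directions. Of 16 fast fibre genes 2 rose (12.5%) and 3 fell (18.8%), near the 17.3% and 15% of all genes. Of 14 slow fibre genes 1 rose, Casq2, and 1 fell, Fhl2 (-0.97), or 7.14% each. Myh4, the myosin of the fastest fibres, was at 9.44, 9.62, 9.65 and 9.48 in control CR, against 9.93, 10.37, 10.04 and 10.15 in control AL, a fall of 0.57 ± 0.13 (adjusted p = 0.00337). With quantile normalization the difference was -0.0064 and did not pass. Of 21 genes of the sarcomere frame and Z-disc 4 rose and 4 fell (19% each), and 1 and 4 did so without control AL replicates 1 and 2. Synpo2l, a Z-disc protein, had 0.62, 0.56, 0.32 and 0.26 in control CR and -1.68, -0.75, -1.33 and -0.84 in control AL and rose by 1.59 ± 0.36 (adjusted p = 0.00391). Titin (Ttn) gave opposite answers by probe: the brightest fell by 0.56 ± 0.13 (adjusted p = 0.00446), while another rose by 0.86 ± 0.15 (adjusted p = 0.000542). Among regulators of the muscle lineage, 5 of 19 rose (26.3%) and 3 fell (15.8%). Beside Myod1, Id3, an inhibitor of such factors, rose by 0.59 ± 0.11 (adjusted p = 0.00152), and Mef2a fell by 0.63 ± 0.14 (adjusted p = 0.00337). In the authors' values the difference of Mef2a was -0.09 and did not pass (adjusted p = 0.61). Smad3, which carries myostatin and activin signals, was at 2.64, 2.56, 2.93 and 2.49 in control CR and 1.22, 1.7, 1.66 and 1.66 in control AL (1.09 ± 0.23, adjusted p = 0.00239).

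Of 16 smooth muscle and pericyte genes 6 rose (37.5%, against 17.3% of all genes) and 0 fell, with a median of 0.48. Without control AL replicates 1 and 2, 3 rose, against 7.81% of all genes. Mcam, an adhesion molecule of pericytes, stood at 1.97, 1.73, 2.04 and 1.78 in control CR, against 0.44, 0.52, 0.71 and 0.97 in control AL (1.22 ± 0.14, adjusted p = 4.85e-05), and the smooth muscle gene Smtn rose by 1.47 ± 0.20 (adjusted p = 0.000163). Of 27 endothelial genes 6 rose (22.2%, against 17.3%) and 2 fell, and 1 rose without control AL replicates 1 and 2. Nos3, the nitric oxide synthase of endothelium, was at 0.25, 0.49, 0.65 and 0.40 in control CR and -0.52, -0.43, -0.52 and -0.28 in control AL (0.89 ± 0.14, adjusted p = 0.000333). Of 30 matrix genes 9 fell (30%, against 15% of all genes) and 1 rose, with a median of -0.47. Without control AL replicates 1 and 2, 11 fell, against 9.83% of all genes, and 1 rose, with a median of -0.76. Col3a1, a fibrillar collagen, had 2.99, 2.14, 2.49 and 3.37 in control CR, against 4.07, 3.98, 4.33 and 5.41 in control AL (-1.7 ± 0.40, adjusted p = 0.00478). Col1a2 fell by 1.65 ± 0.33 (adjusted p = 0.00192) and the membrane protease Mmp14 by 1.24 ± 0.24 (adjusted p = 0.0016). The member that rose was Lama4, a laminin of vessel basement membrane (0.84 ± 0.18, adjusted p = 0.00276).

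Of 18 tendon and cartilage genes 9 fell (50%, against 15% of all genes) and 2 rose, with a median of -1.1. Col2a1, the collagen of cartilage, was at -1.57, -2.46, -2.07 and -1.34 in control CR, against 0.37, 0.43, 0.93 and 1.81 in control AL. The highest restricted pool was 1.71 log2 units below the lowest freely fed one, and the fall was 2.74 ± 0.41 (adjusted p = 0.000251). The 2 tendon transcription factors went apart: Mkx fell by 1.53 ± 0.29 (adjusted p = 0.00141), while Scx stood at 2.44, 2.71, 2.4 and 2.54 in control CR and 1.4, 0.80, 1.32 and 1.53 in control AL and rose by 1.26 ± 0.28 (adjusted p = 0.00362).

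Of 26 leukocyte and macrophage genes measured 16 fell (61.5%, against 15% of all genes) and 0 rose, with a median of -0.69. Without control AL replicates 1 and 2, 10 fell, against 9.83% of all genes (median -0.86). Ctss, a lysosomal protease of these cells, had -0.18, -0.39, -0.38 and 0.10 in control CR, against 2.15, 1.84, 1.42 and 0.84 in control AL, and the freely fed pools followed the order of the neuron markers. It fell by 1.78 ± 0.35 (adjusted p = 0.00166). C1qc, a complement subunit made by macrophages and by microglia, was at -0.71, -0.85, -1.3 and -0.66 in control CR and 0.74, 0.31, 0.64 and 0.10 in control AL (-1.33 ± 0.23, adjusted p = 0.000703), and the adaptor Tyrobp fell by 1.48 ± 0.30 (adjusted p = 0.00218). Division genes split: of 24 measured 7 fell (29.2%) and 4 rose (16.7%), against 15% and 17.3% of all genes. Mki67, a mark of dividing cells, stood at -3.8, -4.37, -3.89 and -3.66 in control CR, against -2.63, -1.82, -2.41 and -1.12 in control AL (-1.93 ± 0.40, adjusted p = 0.00216), and the mitotic regulator Birc5 fell by 1.52 ± 0.30 (adjusted p = 0.00166). Cyclin E1 (Ccne1) fell by 0.97 ± 0.12 (adjusted p = 9.13e-05), while Mcm2, of the replication helicase, rose by 1.0 ± 0.16 (adjusted p = 0.000348) and Cdk4 by 0.54 ± 0.10 (adjusted p = 0.000952).

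Of 19 iron handling genes 8 rose (42.1%, against 17.3% of all genes) and 3 fell, with a median of 0.36. Without control AL replicates 1 and 2, 5 rose, against 7.81% of all genes, and 1 fell. Tfrc, the transferrin receptor, had 2.44, 0.83, 1.61 and 1.48 in control CR, against -0.32, 0.03, -0.29 and 0.97 in control AL, so that 1 restricted pool lay below the highest freely fed one. It rose by 1.49 ± 0.33 (adjusted p = 0.00316), and without those 2 pools it did not pass (adjusted p = 0.0509). Hjv (hemojuvelin), a muscle and liver coreceptor of iron regulation, was at 5.39, 5.55, 5.18 and 5.37 in control CR and 4.01, 4.53, 4.37 and 4.62 in control AL (0.99 ± 0.21, adjusted p = 0.0027). The ferric reductase Steap3 rose by 1.18 ± 0.21 (adjusted p = 0.000938) and the iron transporter Slc11a2 by 0.90 ± 0.18 (adjusted p = 0.00185). With normexp background correction the call of Steap3 was lost.

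Small-molecule pathways had members that moved in both directions. Odc1, the first enzyme of polyamine synthesis, fell by 0.83 ± 0.19 (adjusted p = 0.00484), and Sat1, which marks polyamines for export, fell by 1.09 ± 0.28 (adjusted p = 0.0084). In the authors' values both calls were lost (adjusted p = 0.0545 and 0.0926). Slc6a8, the creatine transporter, stood at 4.55, 4.95, 4.93 and 4.86 in control CR, against 3.85, 3.8, 4.05 and 4.03 in control AL, with each group within 0.40 log2 units (0.89 ± 0.12, adjusted p = 0.000138). Adsl, of purine synthesis, rose by 0.80 ± 0.13 (adjusted p = 0.000467). Pcca and Acadsb, of branched-chain amino acid breakdown, rose by 0.83 ± 0.16 (adjusted p = 0.00124) and 0.81 ± 0.15 (adjusted p = 0.000957). In cholesterol synthesis Mvk, mevalonate kinase, rose by 0.74 ± 0.11 (adjusted p = 0.000219) and Hsd17b7 fell by 1.19 ± 0.22 (adjusted p = 0.0012). Of the polyamine list 1 of 13 rose (7.69%) and 2 fell (15.4%), and of the cholesterol list 6 of 27 rose (22.2%) and 4 fell (14.8%). Of all genes 17.3% rose and 15% fell. Of 19 genes of branched-chain amino acid breakdown 6 rose (31.6%) and 2 fell. Of 23 genes of amino acid transport and nitrogen, the list of Slc6a8 and Adsl, 6 rose (26.1%) and 3 fell. In these last lists 3 and 3 rose without control AL replicates 1 and 2.

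Of 23 genes of the ATF4 and amino acid stress response 9 fell (39.1%, against 15%) and 4 rose, and 5 and 4 did so without control AL replicates 1 and 2. Chac1, which degrades glutathione, had a difference of -1.52 (adjusted p = 0.03). Of 20 genes of the p53 response 6 fell (30%, against 15%) and 2 rose, and Cdkn1a, the cell cycle inhibitor p21, had a difference of -1.6 (adjusted p = 0.0181). Fkbp4, a cochaperone of steroid receptors, had 2.8, 2.84, 2.91 and 2.78 in control CR, against 1.57, 2.06, 1.74 and 1.92 in control AL (1.01 ± 0.14, adjusted p = 0.000176), and the heat shock factor Hsf2 rose by 1.04 ± 0.17 (adjusted p = 0.000547). Of 24 chaperone genes 6 rose (25%, against 17.3%) and 0 fell, although their median relative to all genes was 0.26 and, with quantile normalization, -0.02. Ddit3 (CHOP), a factor of prolonged endoplasmic reticulum stress, rose by 0.94 ± 0.15 (adjusted p = 0.000476), and Sel1l, of protein export from that compartment, by 0.70 ± 0.13 (adjusted p = 0.00106). Srxn1, a sulfiredoxin under Nrf2, fell by 1.12 ± 0.24 (adjusted p = 0.00263). Over the mean of its probes that call was lost (adjusted p = 0.0624). In the endoplasmic reticulum stress list 4 of 20 rose (20%) and 2 fell (10%), against 17.3% and 15% of all genes. In the antioxidant list 2 of 27 rose (7.41%) and 3 fell (11.1%). Among early response genes 4 of 26 rose (15.4%) and 3 fell (11.5%). Klf2, a factor of quiescent endothelium, stood at 6.16, 6.18, 6.27 and 6.13 in control CR, against 4.83, 5.34, 4.99 and 5.28 in control AL. The restricted pools lay within 0.14 log2 units, and the rise was 1.08 ± 0.12 (adjusted p = 3.46e-05). Its relative Klf4 rose by 0.83 ± 0.20 (adjusted p = 0.00516), while Egr2 fell by 1.12 ± 0.22 (adjusted p = 0.00156) and Ccn1 by 0.94 ± 0.19 (adjusted p = 0.00192).

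Chromatin genes moved in both directions. Tet2, which oxidises methylated cytosine, was at -2.23, -1.92, -2.45 and -2.36 in control CR, against -1.17, -1.21, -1.27 and -1.31 in control AL (-1.0 ± 0.15, adjusted p = 0.000251). The methylated-DNA reader Mbd2 rose by 1.04 ± 0.17 (adjusted p = 0.000495) and the methyltransferase Dnmt3b by 0.94 ± 0.16 (adjusted p = 0.000543). Of 13 such genes 4 rose (30.8%) and 3 fell (23.1%), the same counts as without control AL replicates 1 and 2. Of 18 deacetylases and acetyltransferases 5 rose (27.8%) and 3 fell (16.7%), against 17.3% and 15% of all genes. The acetyltransferase pair Crebbp and Ep300 fell by 0.83 ± 0.16 (adjusted p = 0.00158) and 0.78 ± 0.18 (adjusted p = 0.00482). The deacetylases Hdac7 and Hdac3 rose by 0.90 ± 0.15 (adjusted p = 0.000535) and 0.52 ± 0.09 (adjusted p = 0.000853). In the authors' values the calls of Crebbp and Ep300 were lost.

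Of 23 Hox and limb position genes measured 7 rose (30.4%, against 17.3%) and 2 fell, and 4 and 2 did so without control AL replicates 1 and 2. Hoxa10 stood at 1.54, 1.22, 0.66 and 0.74 in control CR, against -0.46, -0.21, 0.19 and 0.47 in control AL (1.04 ± 0.21, adjusted p = 0.00217), and Hoxc10 rose by 0.88 ± 0.12 (adjusted p = 0.000109). Pitx1, which specifies the hind limb, was at -1.21, -1.24, -1.14 and -1.31 in control CR and -2.62, -3.1, -1.87 and -2.12 in control AL (1.2 ± 0.26, adjusted p = 0.00329). Its freely fed pools were lowest on the 2 arrays richest in brain transcripts, and without these the call was lost (adjusted p = 0.0605) and the list's median was -0.20, against 0.12 with all arrays. In ceramide and sphingolipid synthesis 5 of 15 genes fell (33.3%, against 15%) and 2 rose, and 1 and 1 did so without control AL replicates 1 and 2. The ceramide synthase Cers2 rose by 0.67 ± 0.10 (adjusted p = 0.000314), and Hpgd, which breaks prostaglandins down, fell by 1.37 ± 0.24 (adjusted p = 0.000691). Of 14 prostaglandin genes 2 rose (14.3%) and 3 fell (21.4%), and of 15 imprinted genes 2 rose (13.3%) and 3 fell (20%). The paternally expressed Peg3 fell by 1.1 ± 0.22 (adjusted p = 0.00167).

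Several pathway lists held a member whose fall followed the brain markers. Slc7a11, the cystine transporter, stood at -8.7, -8.86, -8.56 and -8.58 in control CR, against -2.21, -2.24, -4.51 and -5.21 in control AL. It was well above background on no control CR array and was at least 8.96-fold lower there (adjusted p = 8.22e-05). The freely fed pools 1 and 2 were more than 2 log2 units above 3 and 4. Bcat1, an amino acid transaminase, fell by 3.97 ± 0.63 (adjusted p = 0.000374), the glutamine carrier Slc38a1 by 3.55 ± 0.53 (adjusted p = 0.000257) and the AMPK kinase Camkk1 by 2.84 ± 0.53 (adjusted p = 0.00108). The neuronal chemokine Cx3cl1 fell by 3.52 ± 0.56 (adjusted p = 0.000381) and the limb and brain factor Meis2 by 3.59 ± 0.58 (adjusted p = 0.000436). Without control AL replicates 1 and 2 the differences of Camkk1, Cx3cl1 and Meis2 were -1.72, -2.27 and -2.37.

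The proteasome and ribosomal protein lists had few falls, and more rises than falls. Among 31 proteasome genes 7 rose (22.6%) and 0 fell, against 17.3% and 15% of all genes, with no difference above 0.57 (Psmd6, 0.57). Of 78 cytosolic ribosomal proteins 19 rose (24.4%) and 2 fell, and of 78 mitochondrial ones 19 rose (24.4%) and 0 fell. Relative to all genes the medians of the proteasome, cytosolic and mitochondrial lists were 0.113, 0.163 and 0.245. With quantile normalization they were -0.178, -0.096 and -0.030. Without control AL replicates 1 and 2, 1 proteasome gene, 3 cytosolic and 4 mitochondrial ribosomal protein genes rose, each a smaller share of its list than the 7.81% of all genes. Mrps23 had the largest difference among these (1.01 ± 0.15, adjusted p = 0.000251), with 2.93, 2.92, 2.84 and 2.93 in control CR and 1.64, 1.68, 2.03 and 2.23 in control AL.

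The same restriction in offspring of undernourished dams, on 8 other arrays, gave 2609 rises (10.5%) and 2446 falls (9.85%). These arrays shared slides and scan days with the control arrays of the same offspring diet. Slide and scan day therefore cannot be told apart from diet in either kind of offspring, and shared calls are not an independent repeat. Of the rises in control offspring 45.3% were also called there, and these made up 74.7% of the rises in undernourished offspring. For the falls the shares were 44.9% and 68.4%. The median level of the neuron markers ran from -2.61 to -0.89 in undernourished AL pools and from -1.64 to 1.17 in control AL pools. The difference between the 2 effects of restriction passed the test for 1 gene, Sptlc3 (0.00403% of genes). Of the 24828 genes 2397 had an unadjusted p under 0.05 (limma). That is a larger share than chance is expected to give at this threshold, and its cause was not tested.

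Sptlc3, a subunit of the enzyme that starts sphingolipid synthesis, was dim. Its level was -6.32, -6.2, -6.14 and -5.98 in control CR, against -4.99, -4.93, -5.65 and -5.8 in control AL, and it was -5.86, -6.18, -6.48 and -5.61 in undernourished CR, against -7.72, -7.69, -7.56 and -7.51 in undernourished AL. It was well above background on 4 control CR arrays and 3 control AL arrays. The undernourished AL levels were as low as those of Fabp1 in control AL, where Fabp1 was well above background on no array. Detection in the undernourished groups is not given here, so the change there may rest on signal near background. It fell by 0.82 ± 0.21 in control offspring (adjusted p = 0.00847) and rose by 1.59 ± 0.21 in undernourished offspring (adjusted p = 0.000278), a difference of -2.41 ± 0.30 (adjusted p = 0.0229). With 1 control pool left out the test of the difference passed for 91 genes without control AL replicate 4, for 2 without control CR replicate 4, for 1 without control AL replicate 3 and for 0 without any other. Without control AL replicates 1 and 2 together it passed for 0 genes, and the fall of Sptlc3 in control offspring was -0.43 (adjusted p = 0.156). That fall was also lost with quantile normalization (-0.40, adjusted p = 0.137) and with an index of brain markers as a covariate (-0.41, adjusted p = 0.221). The next smallest p values, taken in each direction, were of Setdb1, Dll1, Krt76, Nod2, Gigyf1, Zfp455, Gjb5, Hpgds and Scel. Of these, Setdb1 and Dll1 differed in control offspring and did not pass in undernourished ones. Setdb1, a histone methyltransferase, rose by 0.99 ± 0.15 in control offspring (adjusted p = 0.000287) and had 0.13 ± 0.15 in undernourished offspring (adjusted p = 0.588); the difference of the effects did not pass (adjusted p = 0.492). The Notch ligand Dll1 had 0.93 ± 0.15 and -0.05 ± 0.15, with an adjusted p of 0.492 for the difference.

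**Figure D5:**
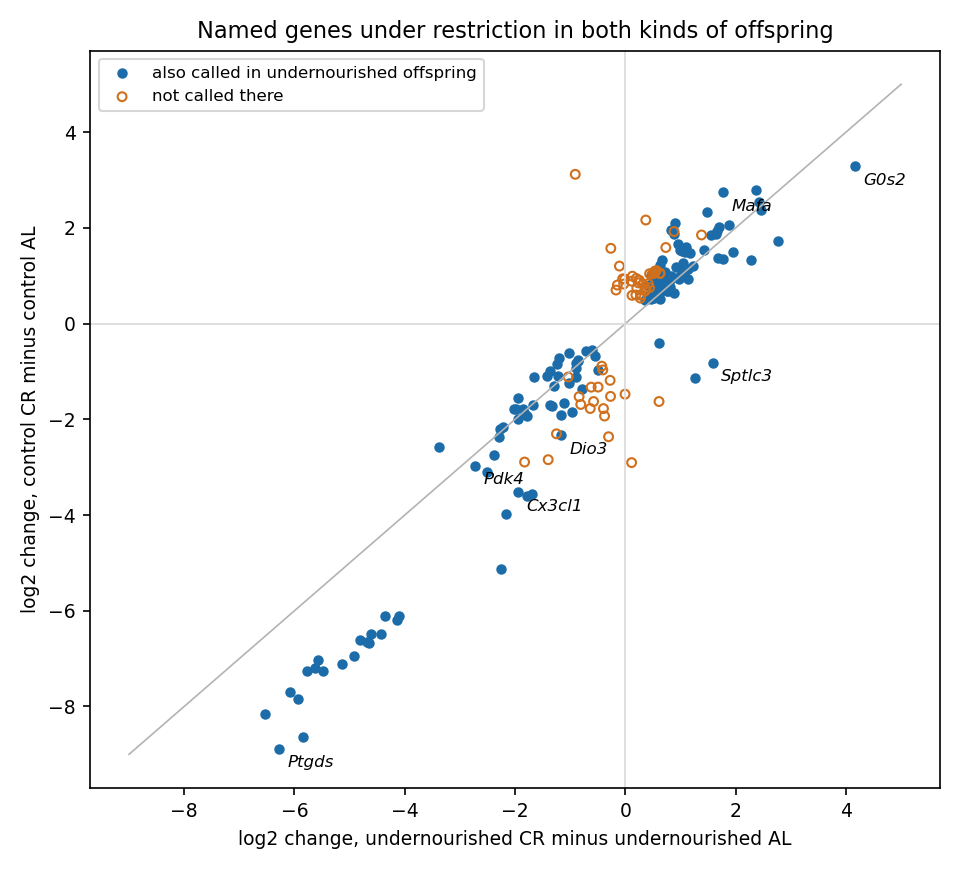
Log2 difference under restriction in control offspring (vertical axis, control CR minus control AL) against that in undernourished offspring (horizontal axis, undernourished CR minus undernourished AL) for the named genes that passed the test in control offspring. The 2 axes share no arrays but share slides and scan days, and the grey line marks equal values. Filled points also passed in undernourished offspring; Sptlc3 lies at -0.82 in control and 1.59 in undernourished offspring.

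The leading genes can be set side by side. G0s2 rose by 3.29 ± 0.50 in control and 4.17 ± 0.50 in undernourished offspring, and Mafa by 2.75 ± 0.30 and 1.77 ± 0.30. Arl5b fell by 3.11 ± 0.19 in control offspring, and in undernourished offspring its difference was -2.51 ± 0.19 (adjusted p = 9.75e-06). Per1 rose by 0.93 ± 0.24 in control offspring and showed -0.01 ± 0.24 in undernourished offspring (adjusted p = 0.976), and its difference of effects did not pass (adjusted p = 0.492). Nos3 and Hdac7 had the same form, with 0.11 ± 0.14 (adjusted p = 0.595) and 0.26 ± 0.15 (adjusted p = 0.246) in undernourished offspring. Mki67 had -0.38 ± 0.40 there (adjusted p = 0.536) and Tyrobp -0.01 ± 0.30 (adjusted p = 0.991), and for neither did the difference pass (adjusted p = 0.492 and 0.492). The median of the clock list was 0.45 in undernourished offspring, against 0.68 in control offspring.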

How the data were processed

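Tibialis anterior RNA (200 ng labelled with Cy3 per array) was hybridised to 1-colour Agilent mouse arrays. The deposited intensity values came from Agilent Feature Extraction 10.5.1.1, per the file headers: the processed signal had its background subtracted and a trend across the slide removed, array by array. Spot types and background flags were used as deposited. The authors also deposited a log2 table of the same arrays, centred per probe over the 16 arrays by a method not given in the sources used here; it served as an alternative.

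Spots other than controls and outlier spots were averaged per probe, log2-transformed and set to the 75th percentile of each array. Probes well above background on at least 4 of 16 arrays were kept. Of 41174 probes 24844 matched 17178 RefSeq symbols and 16330 matched none. The brightest kept probe stood for a gene, and of 2129 called genes with further probes 1312 had one called in the same direction and 128 in the opposite direction. The number of arrays limits the precision.

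The fit used limma 3.58.1 in R 4.3.3, with 1 mean per group over 16 arrays, two-sided moderated tests and Benjamini-Hochberg adjustment over 24828 genes, checked on simulated data. Named genes were those with the 15 largest changes in each direction that held without control AL replicates 1 and 2, up to 4 called members of each list, up to 5 genes detected in 1 group only, and the smallest p values of the difference between offspring. The text describes those of them that carry a list (some genes are not reported here), and beside them members chosen after their values were seen. The genes, lists and members were chosen with earlier results of these data known. Same-numbered control pools did not deviate together, so the numbers do not pair them.

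Alternatives were quantile normalization, normexp background correction (on the median spot signal, since no mean signal was used; backgrounds over 3 times the array's median, at most 19 spots an array, were set to that median), other filters and probe rules, slide or replicate number as a block, a brain-marker index as a covariate, and arrays left out. An index of the 8 brain markers below background in control CR was added after seeing the data.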

Additional observations from a re-analysis of the deposited data

Results flagged for a closer look

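Among the genes named, 402 groups of 4 arrays were examined for an array far from the other 3, and 12 exceeded the 95% limit of Dixon's test. Chance exceeds it in about 1 of 20 groups, or about 20.1 of these, so the number found was below that. In control CR, Eif4e was 3.574 in replicate 1 against 3.395 to 3.416 in the other pools, and Cers2 was 0.9422 in replicate 2 against 1.016 to 1.026. Control CR replicate 3 exceeded it for Rps26, at 4.935 against 4.705 to 4.742, and for Mrps23, at 2.838 against 2.924 to 2.931. Setdb1 was -0.3049 in control CR replicate 4 against -0.7796 to -0.7296.

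In control AL, replicate 1 exceeded it for Cd52, at -1.04 against -1.943 to -1.839, for Eif5a, at 3.968 against 4.145 to 4.163, and for Smad3, at 1.224 against 1.658 to 1.701. Replicate 2 did so for Olfr339, at -3.244 against -3.87 to -3.812, and for Fabp1, at -7.326 against -8.068 to -7.956. Replicate 4 did so for Baat, at -6.086 against -6.903 to -6.771, and for Hpgds, at -6.115 against -4.45 to -4.144. Cd52 marks leukocytes, and its pool 1 also had the highest level of the neuron markers; their part in this was not tested.

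The effect of restriction on Sptlc3 differed between control and undernourished offspring by -2.4058 on the log2 scale (limma, adjusted p = 0.0229), which made it the gene that passed the test of that difference.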

How the results depend on the processing

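With all arrays and the settings of the report 4304 genes were higher and 3724 lower in control CR. The count of higher genes was 11383 in the authors' log2 values. With the brain index as a covariate it was 1693, with the index of markers below background in control CR 1373, without control AL replicates 1 and 2 together 1940, and 304 when 5 arrays high in skin or liver markers were dropped. Dropping these leaves a lone control AL array, whose spread is taken to equal that of the other groups. Lower genes numbered 7611 with normexp background correction and 7949 with no filter on dim probes. With the brain index they numbered 2289, with the second index 1965, without the 2 pools 2441, and with the 5 arrays dropped 604. Leaving out each control pool in turn gave 3080 to 5310 higher and 3112 to 3799 lower genes. Higher genes made up 53.6% of the calls, and 62.9% with quantile normalization, 34.8% with normexp, 81.4% in the authors' values and 35.7% with no filter. The median of all genes moved with the scaling: it was 0.07, and 0.16 with quantile normalization, -0.16 with normexp and 0.29 in the authors' values. Some lists' medians are therefore given relative to it. Other lists' relative medians also changed sign with the scaling. With quantile normalization those of autophagy (0.058 to -0.119), translation factors (0.235 to -0.044) and the proteasome (0.113 to -0.178) did so. Further ones included ribosomal proteins, respiratory subunits, fatty acid oxidation, sarcomere frame, cell cycle and ATF4. Ceramide, polyamine, cholesterol, antioxidant, endoplasmic reticulum stress, early response, insulin and AMPK lists did so too.

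The difference of the effect between control and undernourished offspring passed the test for 1 gene, and for 0 genes with normexp, with the filter on all 8 control arrays, in the authors' values, with the replicate block, with either brain index and without control AL replicates 1 and 2. Leaving out each pool in turn gave 0 to 91 genes, the 91 without control AL replicate 4. Replicate numbers were shared by the groups but did not pair the pools: the deviations of same-numbered control CR and control AL pools correlated at 0.08, -0.12, -0.05 and -0.02. The fit with the replicate number as a block gave 4287 higher, 3721 lower and 0 genes in the difference.

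Of 200 named genes that passed the test, 192 kept their call and direction with normexp, 194 with quantile normalization, 184 in the authors' values, 194 over the mean of all probes, 198 with the slide as a random block, 158 and 134 with the brain indices, 173 without control AL replicates 1 and 2, and 48 without the 5 arrays. Those turned round by normexp were Baat (-0.0579), Treh (-0.0627) and Krt76 (-0.2665), all dim. The cause of these shifts was not tested. Genes below background in a group have only a bound there, and the 4 pools a group limit what can be called.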

Other observations

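Several genes that the report's groups do not hold changed in control CR. Olfr1153, annotated as an olfactory receptor, had -2.73, -1.77, -2.23 and -2.26 in control CR, against 0.09, 0.07, 0.80 and 0.39 in control AL, and Hebp2, a haem-binding protein, fell by 2.36 ± 0.47 (adjusted p = 0.0017). The unconventional myosin Myo5a fell by 1.85 ± 0.18 (adjusted p = 1.72e-05) and Wdr95 by 1.79 ± 0.19 (adjusted p = 2.39e-05), with freely fed pools within 1 log2 unit. These 4 genes were chosen after their values were seen, and the values are limma differences with their standard errors.

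Nod2, a sensor of bacterial cell walls, and Gigyf1, a regulator of translation, rose by 0.80 ± 0.14 (adjusted p = 0.000647) and 0.70 ± 0.13 (adjusted p = 0.000929) in control offspring. In undernourished offspring they had -0.15 ± 0.14 (adjusted p = 0.49) and -0.17 ± 0.13 (adjusted p = 0.366), and the difference between the offspring did not pass for either (adjusted p = 0.492 and 0.492).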
